A study of Gallus gallus with 25 samples.

Results

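Domain boundaries present in all 4 automatically annotated contact maps of chicken oocyte nuclei are described here. They were chosen by position: a boundary of the pooled lampbrush chromosome (LBC) type 1 map was taken when each of the other 3 automatic lists had a boundary at most 80 kb away. This gave 353 of the 1654 inner boundaries of LBC type 1. The first and the last boundary of each chromosome had been left out of every list. All nuclei came from oocytes of wild-type (WT) chickens. The LBC stage, from oocytes 1 to 2 mm in diameter, was represented by 14 nuclei of type 1 and 6 nuclei of type 2. The post-LBC stage, from oocytes 4 to 7 mm in diameter, was represented by 4 nuclei of type 1 and 1 nucleus of type 2. The types had been assigned after quality control by the share of contacts between different chromosomes, and what gives rise to the second type is unresolved. For LBC type 2 the study calls contamination by a somatic cell unlikely and an earlier, pre-lampbrush stage more plausible. For post-LBC type 2 it proposes a later stage than that of post-LBC type 1. The study states that domain boundaries of LBC type 2 clustered much like those of chicken fibroblasts. It kept only type 1 nuclei in its main analyses of contact domains, whereas the rule used here also requires a partner in both type 2 lists. Each of these 4 groups had been pooled into a single domain list, so the lists carry no spread between nuclei or animals. The post-LBC type 2 list rests on a single nucleus, and stage, type and number of nuclei cannot be told apart as reasons for a boundary being found or missed.

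Lampbrush chromosomes are meiotic bivalents of growing oocytes, in which compact chromomeres alternate along the chromosome axis with side loops that are transcribed at a very high rate. In Hi-C maps, which count ligations between DNA segments that lie close together in the nucleus, a contact domain is a stretch whose segments contact each other more often than segments outside it, and a boundary is where such a stretch begins or ends. At the post-lampbrush stage the loops are withdrawn, transcription declines and the chromosomes condense. The chicken karyotype combines a few large macrochromosomes with many small, gene-dense microchromosomes, and the female carries a Z and a W.

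The lists held 1669 inner boundaries in LBC type 2, 1198 in post-LBC type 1 and 1495 in post-LBC type 2. All coordinates of the automatic lists were multiples of 16 kb, so a distance of 80 kb is 5 steps of this grid, and positions are given in bp on the chicken assembly ASM2420605v2. The 353 shared boundaries made up 21.3% of the LBC type 1 boundaries, with a 95% Wilson interval of 19.4 to 23.4. Among all 16 kb grid positions of the same chromosome spans, 5.94% lay within 80 kb of a boundary in each of the 3 partner lists. As the rule used these lists, nothing is read from the difference of these percentages. Intervals here and below cover counting error only, because the boundaries of one pooled map are not replicates. Taken singly, the partner lists matched 854 boundaries (51.6%) in LBC type 2, 888 (53.7%) in post-LBC type 1 and 765 (46.3%) in post-LBC type 2. The corresponding shares of grid positions were 28.3%, 20.5% and 25.4%. A further 464 boundaries had a partner in 2 lists, 520 in 1 list and 317 in none.

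A large part of the shared boundaries bordered stretches that the annotation left without a domain. Such a boundary, called a gap edge, has a domain on one side only. In LBC type 1, 128 of the 353 shared boundaries (36.3%, interval 31.4 to 41.4) were gap edges, against 144 of the other 1301 boundaries (11.1%, interval 9.48 to 12.9). Put the other way, 128 of 272 gap edges (47.1%) were shared, whereas 225 of 1382 boundaries between adjoining domains (16.3%) were. At 112 shared boundaries the position was a gap edge in all 4 maps, at 44 in 1 to 3 maps, and at 197 (55.8%) in no map. How far uncovered or poorly mapped sequence contributes to the shared set was not tested, since the lists do not say why a stretch was left without a domain. The shortest domain measured 208 kb in each of the 4 automatic lists, and 103 of the 136 gaps of LBC type 1 measured at most 200 kb. When it averaged domain sizes to tune domain calling, the study counted only domains longer than 200 kb. Whether shorter domains had been left out of the lists at such gaps was not tested either. Results are therefore given below for the 197 boundaries between adjoining domains as well.

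The uncovered stretches themselves recurred. Of 136 gaps in LBC type 1, 44 had both ends within 80 kb of the ends of a gap in each other automatic list. For gaps no longer than this tolerance, such a match does not require that the gaps overlap. The 44 had a median length of 128 kb, 29 of them measured at most 200 kb, and 31 of the 43 that lay on chromosomes of the manual list were gaps there too. The matching share over all gaps of LBC type 1 is not given here, so nothing is read from this count. The 44 gaps were spread over 16 chromosomes, with 13 on chromosome 1 and 5 on Z. The longest, on Z from 74944001 to 83840000, covered 8896 kb. The shortest measured 16 kb, and one of these, on chromosome 1, lay between 91808000 and 91824000, the closest pair of shared boundaries named here. Chromosome 28 had another pair at the same distance.

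**Figure D1:**
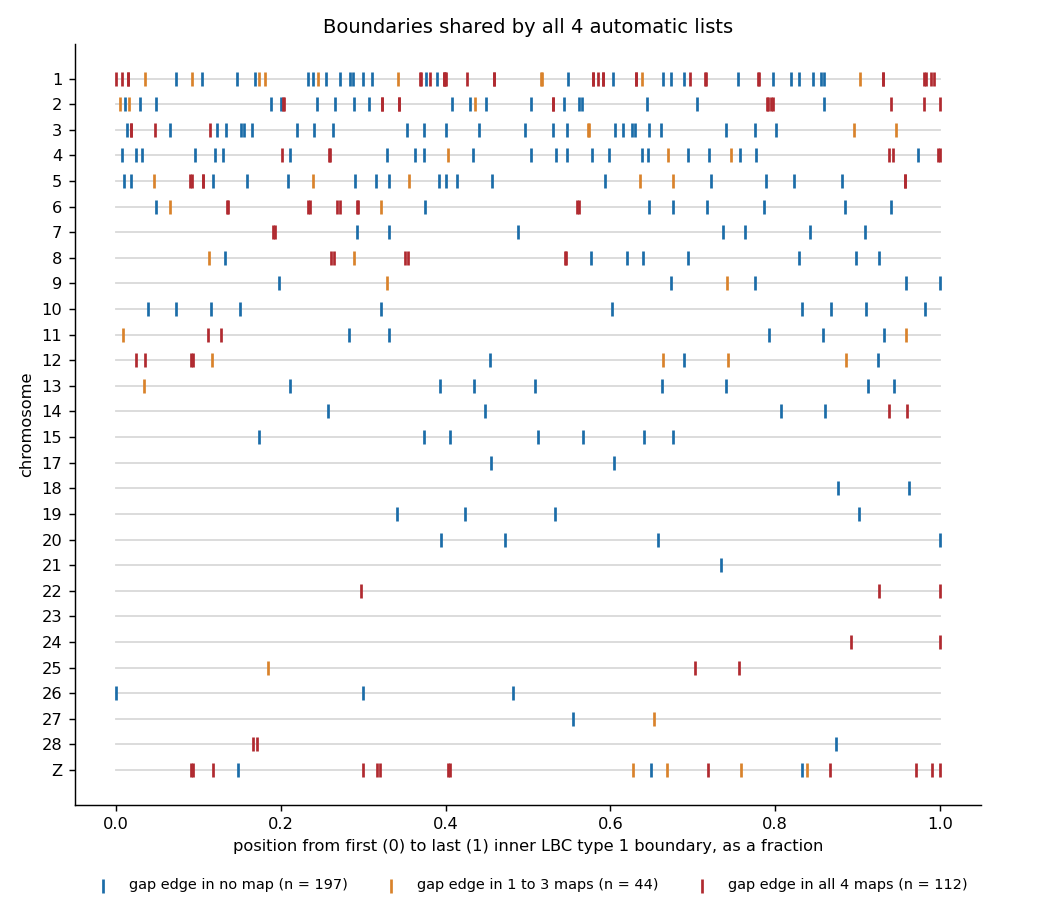
Shared boundaries by chromosome (rows) and relative position (horizontal axis, a fraction from the first to the last inner LBC type 1 boundary). Each tick is 1 boundary, coloured by whether it was a gap edge in no map (197), in 1 to 3 maps (44) or in all 4 maps (112). The last kind is frequent on Z (13 of 20) and absent from chromosomes 9, 10, 13, 15, 17 to 21, 26 and 27, which all carry shared boundaries.

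The exactness of the match differed between the partner maps. The position was the same as in LBC type 1 for 213 shared boundaries (60.3%) in post-LBC type 1, for 198 (56.1%) in LBC type 2 and for 121 (34.3%) in post-LBC type 2. A partner lay within 16 kb, a single grid step, for 83.3%, 69.4% and 63.2% of them, respectively. Partners in post-LBC type 1 lay to the left 70 times and to the right 70 times. In LBC type 2 they lay to the left 83 times and to the right 72 times, and in post-LBC type 2 109 and 123 times. Partners thus lay on both sides in every map, and the mean signed offset was 0.73 kb for post-LBC type 2, -1.31 kb for post-LBC type 1 and -1.99 kb for LBC type 2. The rule limits all of these offsets to 80 kb, so they describe the selected boundaries only.

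**Figure D2:**
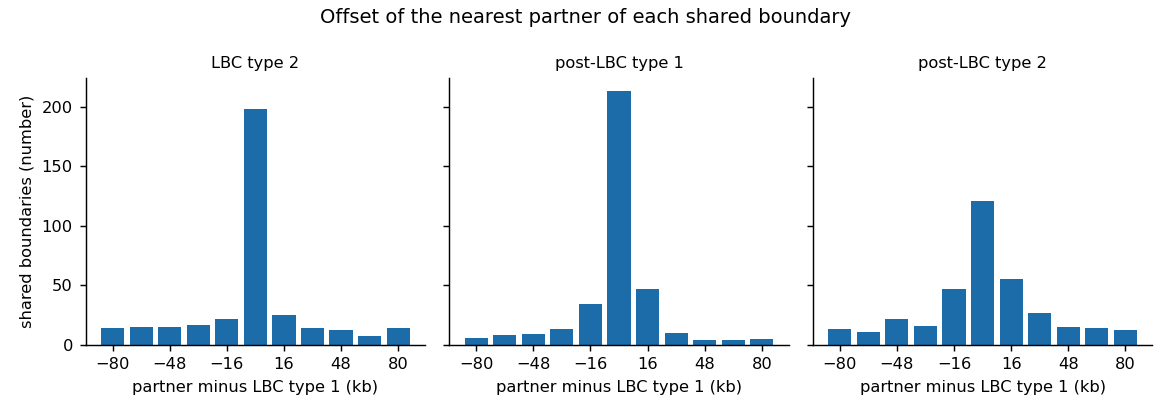
Offset of the nearest partner from the LBC type 1 position (horizontal axis, kb; negative is to the left) against the number of shared boundaries (vertical axis), in 1 panel per partner map. The bar at 0 holds 198 boundaries in LBC type 2, 213 in post-LBC type 1 and 121 in post-LBC type 2.

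The 4 positions of a shared boundary spanned a median of 32 kb (quartiles 16 and 64 kb, largest 160 kb). All 4 coincided at 66 boundaries (18.7%), and at 151 (42.8%) they lay within 16 kb. The span was shorter at the gap edges of all 4 maps, with a median of 16 kb and full coincidence at 40 of 112, than at boundaries between adjoining domains in all maps, with a median of 48 kb and full coincidence at 24 of 197. Near the limit of the rule, 56 shared boundaries had their farthest partner exactly 80 kb away, and 41 boundaries with a farthest partner at 96 kb were left out. The first of the former in chromosome order was position 19328000 of chromosome 1, with partners at 19344000 in LBC type 2, 19344000 in post-LBC type 1 and 19248000 in post-LBC type 2. The first of the latter was position 17264000 of the same chromosome, which had partners at 17296000 in LBC type 2 and 17280000 in post-LBC type 2 but at 17360000 in post-LBC type 1.

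A boundary of another list could serve as the partner of more than 1 shared boundary, and a tie between equally distant partners was resolved to the left. This concerned few cases: 2 shared boundaries had a common partner in LBC type 2, 2 in post-LBC type 1 and 14 in post-LBC type 2. They occurred at narrow gaps such as the pair on chromosome 1 named above, where the partner of both was 91808000 in post-LBC type 1 and in post-LBC type 2.

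Shared boundaries were found on 27 of 28 chromosomes. Chromosome 1 carried 68 of its 296 boundaries, chromosome 2 carried 37 of 222, and Z carried 20 of 105. By chromosome class, the share was 20.8% on macrochromosomes 1 to 5 (200 of 962, interval 18.3 to 23.5), 22.8% on intermediate chromosomes 6 to 10 (62 of 272, interval 18.2 to 28.1), 22.5% on microchromosomes from 11 upwards (71 of 315, interval 18.3 to 27.5) and 19.0% on Z (20 of 105, interval 12.7 to 27.6). All 4 intervals overlapped. Single chromosomes ranged more widely, but on small numbers. The highest share, 33.3%, was that of chromosomes 25, 26 and 28, each with 3 of 9 boundaries. None of the 9 boundaries of chromosome 23 was shared, for which the interval reached 29.9%, and chromosome 21 had 1 of 14. Among the larger chromosomes, 8 had 30.2% (16 of 53, interval 19.5 to 43.5) and 7 had 13.2% (9 of 68, interval 7.12 to 23.3). All 9 shared boundaries of chromosome 7 recurred in the manual list described below. So did all 7 of chromosome 9 and all 10 of chromosome 10, so full recurrence was not particular to chromosome 7. The share over all boundaries of chromosome 7 is not given here.

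**Figure D3:**
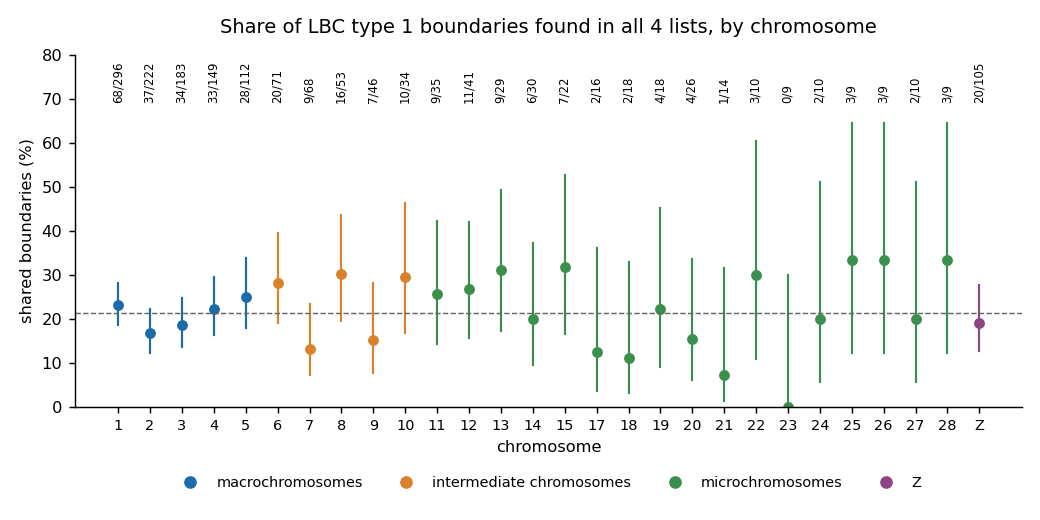
Percent of the inner LBC type 1 boundaries that were shared (vertical axis) on each chromosome (horizontal axis), with 95% Wilson intervals as bars and the counts above. The dashed line marks the share over all chromosomes, 21.3%, which lies inside the interval of every chromosome.

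The density of shared boundaries had the same order of classes as that of all boundaries. Over 987.3 Mb between the outermost inner boundaries there were 0.358 shared boundaries per Mb. The density was 0.329 per Mb on macrochromosomes, 0.451 on intermediate chromosomes, 0.454 on microchromosomes and 0.236 on Z. The exact Poisson interval was 0.285 to 0.378 on macrochromosomes and 0.345 to 0.578 on intermediate chromosomes. It was 0.355 to 0.573 on microchromosomes and 0.144 to 0.364 on Z. All LBC type 1 boundaries had densities of 1.58, 1.98, 2.02 and 1.24 per Mb in the same order of classes. When only boundaries between adjoining domains in all maps were counted, the densities were 0.182, 0.276, 0.288 and 0.0354 per Mb. The density of all LBC type 1 boundaries between adjoining domains is not given beside them. On Z, 13 of the 20 shared boundaries were gap edges in all 4 maps and 3 in none, so most of the Z value came from the borders of uncovered stretches.

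Each chromosome was divided into 5 equal parts between its first and its last inner LBC type 1 boundary. Pooled over all chromosomes, the share was 21.2%, 23.0%, 18.7%, 22.4% and 21.5% from the first to the last part. The 5 intervals, between 14.8 and 27.8, overlapped. The same parts held 27, 29, 17, 14 and 25 shared boundaries that were gap edges in all 4 maps. Single small chromosomes could be one-sided. On chromosome 18 the shared boundaries lay only in the last part, at relative positions 0.8764 and 0.9621.

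Neighbouring shared boundaries lay a median of 1840 kb apart (326 intervals, quartiles 752 and 3332 kb), whereas all LBC type 1 boundaries lay a median of 576 kb apart. The mean was 2691 kb, and 53 intervals exceeded 5 Mb. By class the median was 2176 kb on macrochromosomes, 1312 kb on intermediate chromosomes, 1072 kb on microchromosomes and 2144 kb on Z. At the short end, 36 intervals measured at most 200 kb, which is below the shortest domain of the automatic lists, 208 kb, and such pairs are the facing edges of gaps. Between boundaries that were gap edges in no map, the median was 2688 kb and the shortest distance 352 kb.

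**Figure D4:**
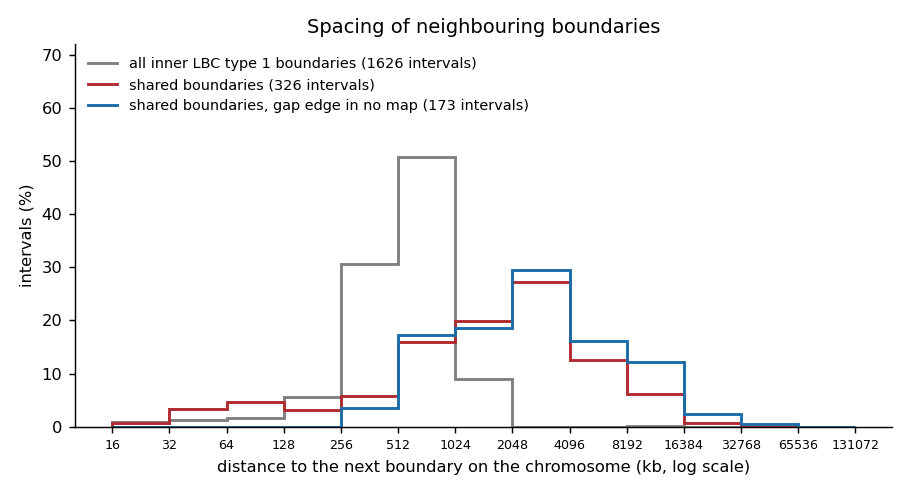
Distance to the next boundary on the same chromosome (horizontal axis, kb, log scale with bins that double in width) against the percent of intervals (vertical axis), for all inner LBC type 1 boundaries, for the shared boundaries and for the shared boundaries that were gap edges in no map. The curve of all boundaries peaks between 512 and 1024 kb and both curves of shared boundaries peak between 2048 and 4096 kb, while only the curves that include gap edges extend below 256 kb.

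In the order of LBC type 1 boundaries, 183 of the 353 shared boundaries stood alone and 170 lay in runs of 2 or more. They formed 260 runs, of which 183 were a single boundary, 67 were a pair and 77 held 2 or more. The longest run, of 5, lay on chromosome 8 and is given in full. Its first boundary was at 16208000 in LBC type 1, LBC type 2 and post-LBC type 1 and at 16224000 in post-LBC type 2. The second was at 16240000 in the first 3 maps, and its nearest partner in post-LBC type 2 was again 16224000. These are the 2 edges of a 32 kb gap. The third boundary, 17136000, had the same position in all 4 maps. The next was at 18368000 in LBC type 1 and post-LBC type 1, at 18384000 in LBC type 2 and at 18352000 in post-LBC type 2. The last was at 18944000 in both type 1 maps and at 18880000 in both type 2 maps, a shift of 64 kb. In the manual list all 5 had the LBC type 1 position. The 2 stages of type 1 were thus identical throughout this run, and the type 2 maps differed from them by 64 kb at most.

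The opposite extreme was on chromosome 2, where no boundary between 7664000 and 28800000 was shared. This stretch of 21136 kb held boundaries in every list. In LBC type 1 their density was lower than the 1.47 per Mb of the whole chromosome. The stretch held 27 in LBC type 1, 33 in LBC type 2, 22 in post-LBC type 1, 28 in post-LBC type 2 and 15 in the manual list. The first shared boundary was at 7664000 in LBC type 1, LBC type 2, post-LBC type 1 and the manual list and at 7648000 in post-LBC type 2. The one at its other end was at 28800000 in LBC type 1 and the manual list, 28848000 in LBC type 2, 28832000 in post-LBC type 1 and 28816000 in post-LBC type 2. The shared boundary farthest from any other, 9360 kb, was also on chromosome 2, at 129952000.

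Domains with a shared boundary at both ends were few in each list, and of the LBC type 1 boundaries 21.3% were shared. The same shared boundaries were compared with lists of different length, so no result is read from the order of the lists. Both ends lay within 80 kb of a shared boundary in 43 of 1546 domains of LBC type 1 (2.78%), 49 of 1582 of LBC type 2 (3.10%), 78 of 1132 of post-LBC type 1 (6.89%) and 60 of 1342 of post-LBC type 2 (4.47%). Of the 43, 34 were present as one undivided domain in all 4 lists. They had a median length of 600 kb (256 to 1232 kb), against 592 kb for all LBC type 1 domains, and were spread over 13 chromosomes, 15 of them on macrochromosomes, 8 on intermediate chromosomes, 11 on microchromosomes and none on Z. In the manual list, 19 of the 34 had a counterpart. The matching share over all LBC type 1 domains is not given here, so nothing is read from this count. The longest of the 34 was the domain of chromosome 8 from 17136001 to 18368000. Its length was 1232 kb in both type 1 maps, and among the type 2 maps LBC had 1248 kb and post-LBC 1216 kb. The shortest, from 79952001 to 80208000 on chromosome 1, measured 256 kb in all 4 maps and lay between 2 gaps that recurred in all of them.

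On chromosome 15, 3 adjoining domains were kept in all 4 lists. They ran from 6496001 to 7120000, from 7120001 to 7968000 and from 7968001 to 8384000 in both type 1 maps. In LBC type 2 the first began at 6416001 and the other ends had the same positions. In post-LBC type 2 the first began at 6448001 and the border of the second and the third domain was at 7952000. The manual list had boundaries at 6464000, 7125000 and 7968000, and the boundary at 8384000 had no counterpart there. Chromosome 10 had 2 such adjoining domains, from 3184001 to 3808000 and from 3808001 to 4560000, whose outer ends were the same in all 5 lists and whose inner border was at 3888000 in LBC type 2 and at 3808000 in the other 4 lists. Pairs of adjoining domains kept in all 4 lists were also present on chromosomes 2 and 8. The series of chromosomes 15 and 10 were singled out after their values were seen.

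Between neighbouring shared boundaries the maps were mostly subdivided. In the 293 intervals longer than 160 kb, and beyond 80 kb from either end, LBC type 1 had 1092 further boundaries (mean 3.73 per interval), LBC type 2 had 1134 (3.87), post-LBC type 1 had 708 (2.42) and post-LBC type 2 had 1007 (3.44). No further boundary was present in 20.8%, 22.9%, 32.8% and 26.6% of the intervals, respectively. In 53 intervals (18.1%) no list had one, and of these 34 were domains and 18 were gaps of LBC type 1. The lower number in post-LBC type 1 goes with its shorter list, 1198 boundaries in all.

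The manual list, a refinement by hand of the domains of the LBC type 1 map, held 1116 inner boundaries over all of its 29 chromosomes. Its recurrence is not independent of the choice of boundaries, because it was drawn on the map that supplied them. Of the 350 shared boundaries on its chromosomes, 269 (76.9%, interval 72.2 to 81) had a manual boundary within 80 kb. The background over all inner LBC type 1 boundaries on these chromosomes was 47.7% (784 of 1645), over those that were not shared it was 39.8% (515 of 1295), and over grid positions it was 15.5%. At 184 shared boundaries (52.6%) the manual position was the same. Of the 1746 starts and ends of manual domains, 1343 lay on the 16 kb grid, and those off the grid cannot equal an automatic position. In addition, 83 pairs of neighbouring manual domains overlapped, which gives separate positions for a single border. The background for the same position was 31.7% (522 of 1645) over all and 26.1% (338 of 1295) over those not shared. Shared boundaries recurred more often than the others on 24 of 26 chromosomes compared, less often on 1 and equally on 1. Some of these chromosomes held very few shared boundaries, with 1 on chromosome 21 and 2 each on chromosomes 17, 18, 24 and 27. Their shares therefore rest on small numbers.

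Recurrence rose with the number of partner lists, from 15.6% for boundaries without a partner to 35.1% with 1, 61.6% with 2 and 76.9% with all 3, but the sets were separated mainly by whether post-LBC type 1 was among these lists. Boundaries with a partner in post-LBC type 1 recurred in 72.4% (638 of 881, interval 69.4 to 75.3) and those without in 19.1% (146 of 764, interval 16.5 to 22). Boundaries with a partner in post-LBC type 1 that were not shared by all maps recurred in 69.5% (369 of 531, interval 65.4 to 73.3), against 76.9% (interval 72.2 to 81) for the shared boundaries. With partners in post-LBC type 1 and post-LBC type 2 the value was 75.8% (157 of 207), with post-LBC type 1 and LBC type 2 it was 65.8% (104 of 158), and with post-LBC type 1 alone 65.1% (108 of 166). Where the 2 type 2 maps were the partners it was 24.0% (23 of 96). It was 32.1% (35 of 109) with post-LBC type 2 alone and 16.0% (39 of 244) with LBC type 2 alone. Post-LBC type 1 was also the automatic list with the fewest boundaries. Its median domain, 864 kb, was the closest to the 976 kb of the manual list, against 592, 608 and 688 kb in LBC type 1, LBC type 2 and post-LBC type 2. Stage, type and domain size of the list cannot be told apart in this separation.

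**Figure D5:**
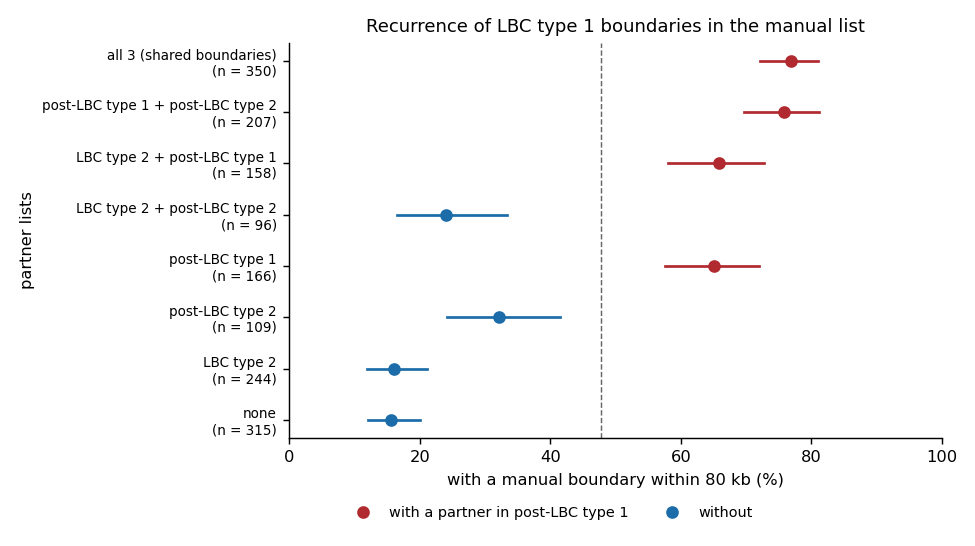
Percent of inner LBC type 1 boundaries with a manual boundary within 80 kb (horizontal axis), by the partner lists in which the boundary was found (vertical axis), with 95% Wilson intervals as bars. The dashed line marks 47.7%, the value over all boundaries. The 4 sets with a partner in post-LBC type 1 lie between 65.1% and 76.9% and the 4 sets without lie between 15.6% and 32.1%.

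Recurrence was 80.9% (89 of 110, interval 72.6 to 87.2) for shared boundaries that were gap edges in all 4 maps and 75.1% (148 of 197, interval 68.6 to 80.6) for those that were gap edges in none. It was higher where the 4 positions were closer, with 86.4% (57 of 66, interval 76.1 to 92.7) where they coincided, 78.1% (132 of 169) for spans of 16 to 48 kb and 69.6% (80 of 115, interval 60.6 to 77.2) for spans of 64 kb or more. On macrochromosomes it was 70.5% (141 of 200, interval 63.8 to 76.4), on intermediate chromosomes 87.1% (54 of 62, interval 76.6 to 93.3), on microchromosomes 85.3% (58 of 68, interval 75 to 91.8) and on Z 80% (16 of 20). The matching shares over all LBC type 1 boundaries are not given here for these kinds and classes. No difference between them is therefore read as a trait of the shared boundaries. The shared boundary farthest from a manual one was at 151248000 on chromosome 2, near its right end, whose nearest manual boundary, at 146910000, had an offset of -4338 kb. It was a gap edge in all 4 maps, with partners at 151264000 in LBC type 2 and post-LBC type 1 and at 151280000 in post-LBC type 2.

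Seen from the manual list, on the 27 chromosomes that it had in common with the automatic lists, 312 of 1095 inner boundaries (28.5%) had a shared boundary within 80 kb, while 936 (85.5%) had some LBC type 1 boundary. A shared boundary lay at 1 end or both ends of 378 of 859 manual domains (44.0%) and at both ends of 61 (7.10%). Among domains longer than the N50 of the list, 1344 kb, which is the length above which domains hold 50% of the total, 106 of 230 (46.1%) had one at an end. Among the shorter domains 272 of 629 (43.2%) did. The matching shares for all LBC type 1 boundaries at long and short manual domains are not given here. Nothing is therefore read from these values.

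At 40 shared boundaries the position was the same in all 5 lists. They lay on 16 chromosomes, 17 on macrochromosomes, 10 on intermediate chromosomes, 7 on microchromosomes and 6 on Z. Of these, 23 were gap edges in all 4 maps. Examples are 74144000 and 74224000 on chromosome 1, 11008000 and 11136000 on chromosome 6, and 28272000 and 35584000 on Z. The pairs on chromosomes 1 and 6 were the 2 edges of gaps of 80 and 128 kb. A further 15 lay between adjoining domains in all maps, and these were singled out after their values were seen. They were 19040000, 56032000 and 70464000 on chromosome 3, 30272000 and 34400000 on chromosome 4, and 17488000 and 35216000 on chromosome 5. Chromosome 8 had 1 at 17136000, which is the start of the longest shared domain, and chromosome 9 had 1 at 23152000. Chromosome 10 had 3, at 3184000, 4560000 and 13408000. The remaining ones were 18256000 on chromosome 11, 17376000 on chromosome 13 and 6944000 on chromosome 20. None of these 15 was on chromosome 1, 2 or Z, where the boundaries with the same position in all 5 lists were all gap edges in at least 1 map. The same held on chromosomes 6, 7, 12 and 14.

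The domains beside a shared boundary were of about the same size as those beside other boundaries. The mean length of the flanking domains had a median of 616 kb at the 197 shared boundaries between adjoining domains (quartiles 512 and 736 kb). For the other boundaries, those between adjoining domains in LBC type 1 were used, whether or not their partners were gap edges. There the median was 652 kb at 408 boundaries with a partner in 2 lists, 592 kb at 459 with 1 and 592 kb at 290 with none.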

How the data were processed

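Single-nucleus Hi-C was made from 25 chicken oocyte nuclei. Before deposition the authors removed adapters (cutadapt), mapped to ASM2420605v2 (juicer), built unbalanced contact matrices (cooler), pooled the nuclei of each group and called domains (lavaburst). The study states another resolution for domain calling than the 16 kb grid of the lists. It tuned a setting of the caller for each oocyte toward a preferred average domain size, and gives no value for the pooled maps. The number and density of boundaries may depend on this setting. The deposited values are other than counts: they are domain coordinates in bp, a start and an end per domain, in 4 automatic lists and 1 list of LBC type 1 refined by hand. The lists give neither depth nor boundary strength, and the contact numbers that the study states per nucleus were not used here. All list columns were assigned.

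Boundaries were the unique domain starts and ends of a chromosome without the outermost 2, and partners were nearest boundaries. Positions are those of the files, where a domain covers the bases after its start up to its end. Python 3.11.15, numpy 2.4.6, scipy 1.17.1 and matplotlib 3.10.9 were used, and the matching was tested on simulated lists. No test between groups was made, since each has 1 list. Shares carry Wilson intervals and densities exact Poisson intervals, both at 95%. Boundaries named by position are those with the same position in all 5 lists (the first 12 by class and chromosome), the extremes of spacing, run length, share and distance, and those beside the limit of the rule. The boundaries, rules and lists of boundaries were chosen with earlier results of these data known. Chromosomes W and 33, present in the manual list but in no automatic list, were left out of the comparisons with it, and genome sequence and gene annotation of this assembly were not used here. Alternatives were other tolerances, counted lists, matching, treatment of gaps and ends, and chromosomes left out.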

Additional observations from a re-analysis of the deposited data

How the results depend on the processing

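No paired analysis was possible because each group was deposited as 1 pooled list and no result comes from a test, and for the same reason no nucleus could be left out. Of 89 alternatives, 51 kept counts within 1.5 times and shares, densities and medians within their 95% interval (for medians from binomial order statistics), and 38 did not. At 16, 32 and 160 kb the number of shared boundaries was 158, 209 and 547, and at 16, 32, 48 and 160 kb their share was 9.55%, 12.6%, 15.5% and 33.1%. At 16, 48 and 160 kb the density per Mb was 0.141, 0.245 and 0.536 on macrochromosomes, 0.233, 0.32 and 0.661 on intermediate chromosomes and 0.186, 0.307 and 0.646 on microchromosomes, and at 16 kb it was 0.13 on Z. The median spacing was then 3280, 2280 and 1248 kb. The median span was 64 kb at 160 kb. Recurrence in the manual list was 66.0% at 16 kb and 64.3% with 1 border for each pair of neighbouring manual domains.

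Without gap edges in any list, 197 boundaries (14.3%) were shared, with a median spacing of 2688 kb. Leaving out LBC type 2, post-LBC type 1 or post-LBC type 2 gave shares of 33.9% (560 boundaries), 27.1% and 31.1%, and keeping the outermost boundaries in all lists gave 23.4%. With single chromosomes left out the share ranged from 21.0% to 22.1%. Chosen after seeing the data were the removal of gap edges after matching, which left 197 boundaries and 0.182, 0.276, 0.288 and 0.0354 per Mb on macrochromosomes, intermediate chromosomes, microchromosomes and Z, and tolerances of 48 and 160 kb for domains with shared boundaries at both ends, which gave 22 and 119 in place of 43. The lists carry no depth, and a boundary missed in the single post-LBC type 2 nucleus was not distinguishable from one that is absent.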
